A study of Drosophila melanogaster with 8 samples.

Results

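Genes of the cell cycle and of DNA replication were compared between SZ females of Drosophila melanogaster that had mated with males of their own strain (ZxZ) and SZ females that had mated with males of the cosmopolitan M strain (ZxM). The members were chosen by name, from 38 genes listed by function, and a gene was used where the array's annotation gave a probe set to that gene alone. This held for 28 of the 38 genes, with 1 probe set each, out of 11983 genes measured in the same way. E2f1 had only a probe set shared with another gene, and Mcm7, geminin, Orc6, CycA, Cdk1, stg, polo, aurA and BubR1 were not analysed here. The 28 genes fall into a replication arm of 13 genes (helicase loading, origin recognition and DNA synthesis), 9 cyclins, kinases and their regulators, and a mitosis arm of 6 genes (spindle, mitotic kinases and checkpoint).

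SZ is a composite line, bred by crossing 6 isofemale lines from Zimbabwe, and its females prefer males of their own strain. M strain males came from LHM, a large outbred laboratory population. All 8 arrays therefore measured females of the same SZ line, aged 7 days and virgin until the mating, and frozen 30 minutes after copulation ended. The 4 ZxZ and 4 ZxM arrays each carried RNA from 8 whole females pooled together. In whole flies, fewer cells of a type and less RNA per cell cannot be told apart.

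Before a cell divides it copies its DNA once. The origin recognition complex binds origins, Cdc6 and the product of dup (Cdt1) load the Mcm2 to Mcm7 helicase there, and cyclin E with Cdk2 starts synthesis by polymerase alpha and its partners, with PCNA as the sliding clamp. Mitosis then follows under the control of mitotic cyclins and kinases, motor proteins build the spindle, and a checkpoint delays anaphase until chromosomes are attached. In adult females the ovary is known for these genes, because germline stem cells and follicle cells divide, nurse and follicle cells replicate their DNA without dividing, and oocytes are stocked with the messages for the first embryonic divisions.

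Levels are the log2 values deposited by the authors, and differences are ZxZ minus ZxM with arrays weighted by their reliability, so a difference can depart from that of the group means. Of the 28 members, 27 had a lower mean in ZxZ than in ZxM females, and the differences were small, with a median of -0.11 on the log2 scale (a fold of 0.924). A test was made only for the 5991 genes in the upper 50% by variability over the 8 arrays, which included 22 of the members. With limma at a false discovery rate (FDR) of 10%, 4 of these 22 members (18.2%) were lower in ZxZ females, against 17.6% of all tested genes, and none was higher, with 18.7% of all tested genes called in either direction. The members called were Cdc6, dpa and dup of helicase loading and fzr of mitotic exit. At an unadjusted p under 0.05 there were 14 of the 22 members (63.6%), all of them lower in ZxZ, against 35.0% of all tested genes and 47.0% of the tested genes in the level range of the members. The adjusted p of the called members ran from 0.0888 to 0.0936, and 6 further members lay just above the threshold, at 0.101 to 0.105. None of the 4 passed with equal array weights (adjusted p = 0.199 each, limma) or by the methods' t-test alone, which called 0 and 10 genes in all. With the replicate number added to the limma fit as a block, none of them passed and 1 gene was called in all.

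Most genes at the levels of the members (mean log2 level 9.41 to 13.80) were also lower in ZxZ. Of 4216 measured genes in that range 93.9% had a negative difference, with a median of -0.11, and 26.4% of the 2883 tested ones were lower in ZxZ by limma. In 11 of the 28 members (39.3%) all ZxZ arrays lay below all ZxM arrays, against 8.7% of all measured genes and 17.1% of those in the members' level range. The count of members called depended on single arrays. It was 0 without ZxZ replicate 3, ZxZ replicate 4, ZxM replicate 1 or ZxM replicate 3, where no gene in all was called. It was 15 of 21 tested members without ZxZ replicate 1, 8 of 15 without ZxZ replicate 2, 10 of 18 without ZxM replicate 2 and 14 of 20 without ZxM replicate 4. In those 4 fits the share of all tested genes called was also higher, at 48.4%, 40.1%, 42.6% and 49.5%. With all measured genes tested it was 0 by limma, and 15 of 28 members (53.6%) had an unadjusted p under 0.05, against 21.1% of all genes and 36.7% of those in the level range.

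**Figure D1:**
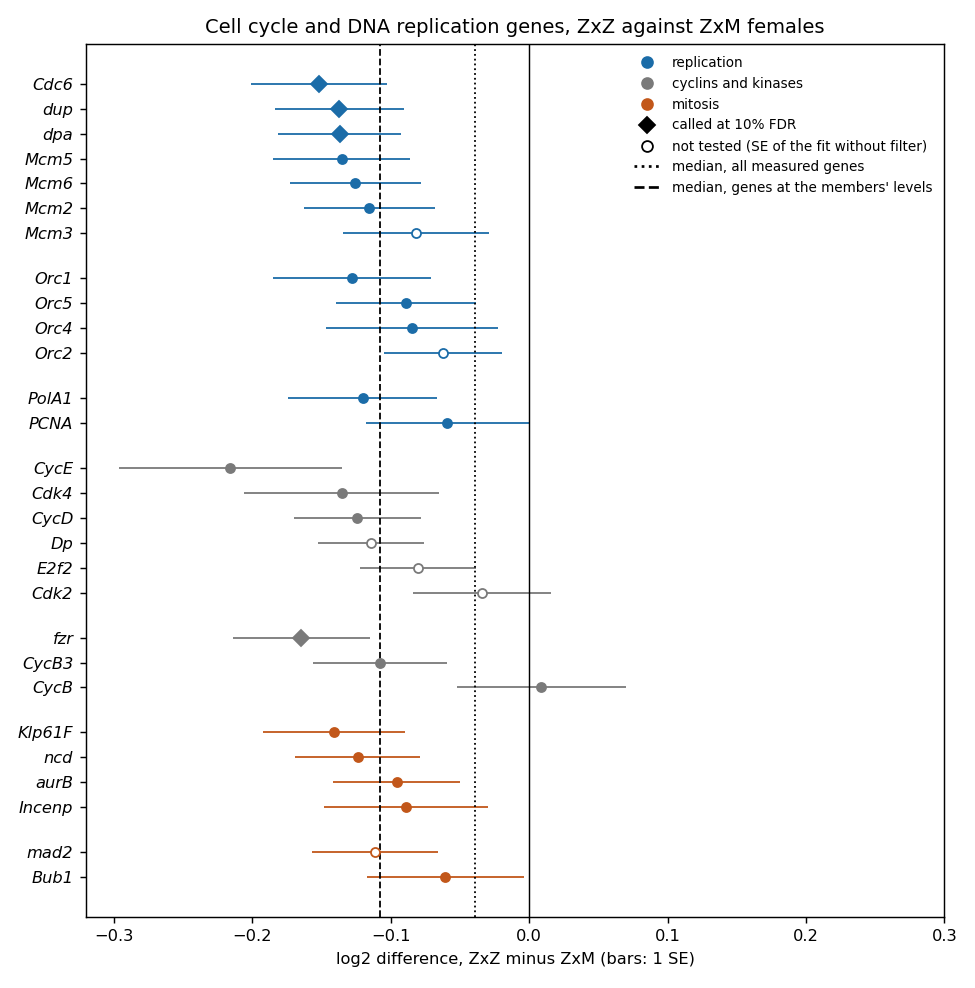
Log2 difference, ZxZ minus ZxM, of each of the 28 measured members on the horizontal axis, with bars of 1 SE from limma, by role from helicase loading at the top to the spindle checkpoint at the bottom. Every point but CycB lies below 0, most of them near the dashed median (-0.11) of genes at similar levels, and diamonds mark the 4 members called.

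Helicase loading gave 3 of the 4 calls. Of its 7 measured genes 6 were tested, and 3 (50%) were lower in ZxZ, against 26.4% of tested genes in the members' level range. The other 3 did not pass, and the median difference of the 7 was -0.14 (a fold of 0.910). Cdc6, which brings the helicase to the origin, was at 10.30, 10.25, 10.21 and 10.25 in ZxZ and at 10.44, 10.40, 10.40 and 10.31 in ZxM (replicates 1 to 4, difference -0.15, SE 0.0491, adjusted p = 0.0901 from limma). The groups did not overlap, and the lowest ZxM array, replicate 4, lay just above the highest ZxZ array, replicate 1.
dpa, which encodes the Mcm4 subunit, was at 10.28, 10.17, 10.23 and 10.18 in ZxZ and at 10.36, 10.35, 10.33 and 10.36 in ZxM (difference -0.14, SE 0.0444, adjusted p = 0.0904 from limma). Its 4 ZxM arrays lay close together (SD 0.0136) and above every ZxZ array. dup was at 12.07, 12.00, 11.95 and 11.98 in ZxZ and at 12.14, 12.11, 12.16 and 12.09 in ZxM (difference -0.14, SE 0.0465, adjusted p = 0.0936 from limma), again without overlap.

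The other subunits of the helicase had differences of similar size. Mcm5 was at 11.71 ± 0.0753 in ZxZ and 11.83 ± 0.00945 in ZxM (SD, n = 4 each), a difference of -0.14 with an adjusted p of 0.101 from limma. Mcm6 was at 11.33 ± 0.0645 in ZxZ and 11.46 ± 0.0300 in ZxM (SD, n = 4 each), which differed by -0.13 (adjusted p = 0.105 from limma). Mcm2 was at 11.92 ± 0.0606 in ZxZ and 12.04 ± 0.0367 in ZxM (SD, n = 4 each), with a difference of -0.12 (adjusted p = 0.118 from limma). None of these passed, though in each of them the ZxZ arrays lay below all ZxM arrays.
Mcm3 varied too little over the arrays to be tested. It was at 11.11, 10.94, 11.12 and 11.14 in ZxZ and at 11.13, 11.29, 11.20 and 11.16 in ZxM, a difference of -0.08. It is the 1 helicase loading gene of the 7 whose groups overlapped, and ZxZ replicate 2 stood below the rest. In 85.7% of the 7 genes all ZxZ arrays lay below all ZxM arrays, against 17.1% of measured genes in the members' level range. Whether the shares of this role differ from those of other genes was not tested.

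Genes of origin recognition and of DNA synthesis had median differences of -0.09 each, and none of the 5 tested passed with limma (2 had an unadjusted p under 0.05). Orc1, the largest subunit of the complex, was at 11.57, 11.41, 11.42 and 11.45 in ZxZ and at 11.58, 11.59, 11.71 and 11.49 in ZxM (difference -0.13, SE 0.0570, adjusted p = 0.139 from limma). ZxZ replicate 1 lay within the ZxM range. Orc5 was at 10.45 ± 0.0246 in ZxZ and 10.56 ± 0.0745 in ZxM, and Orc4 at 10.16 ± 0.0744 in ZxZ and 10.27 ± 0.0942 in ZxM (SD, n = 4 each), with differences of -0.09 and -0.08. Orc2, which was not tested, was at 9.83, 9.71, 9.77 and 9.71 in ZxZ and at 9.78, 9.83, 9.89 and 9.82 in ZxM, a difference of -0.06. The groups overlapped in all 4 genes of origin recognition.
PolA1, the catalytic subunit of polymerase alpha, was at 9.41, 9.28, 9.40 and 9.26 in ZxZ and at 9.46, 9.52, 9.54 and 9.40 in ZxM (difference -0.12, SE 0.0537, adjusted p = 0.139 from limma). PCNA was at 12.81, 12.72, 12.68 and 12.67 in ZxZ and at 12.76, 12.73, 12.93 and 12.68 in ZxM (difference -0.06, SE 0.0590, adjusted p = 0.465 from limma). In PCNA the groups lay largely over each other, apart from the high ZxM replicate 3.

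**Figure D2:**
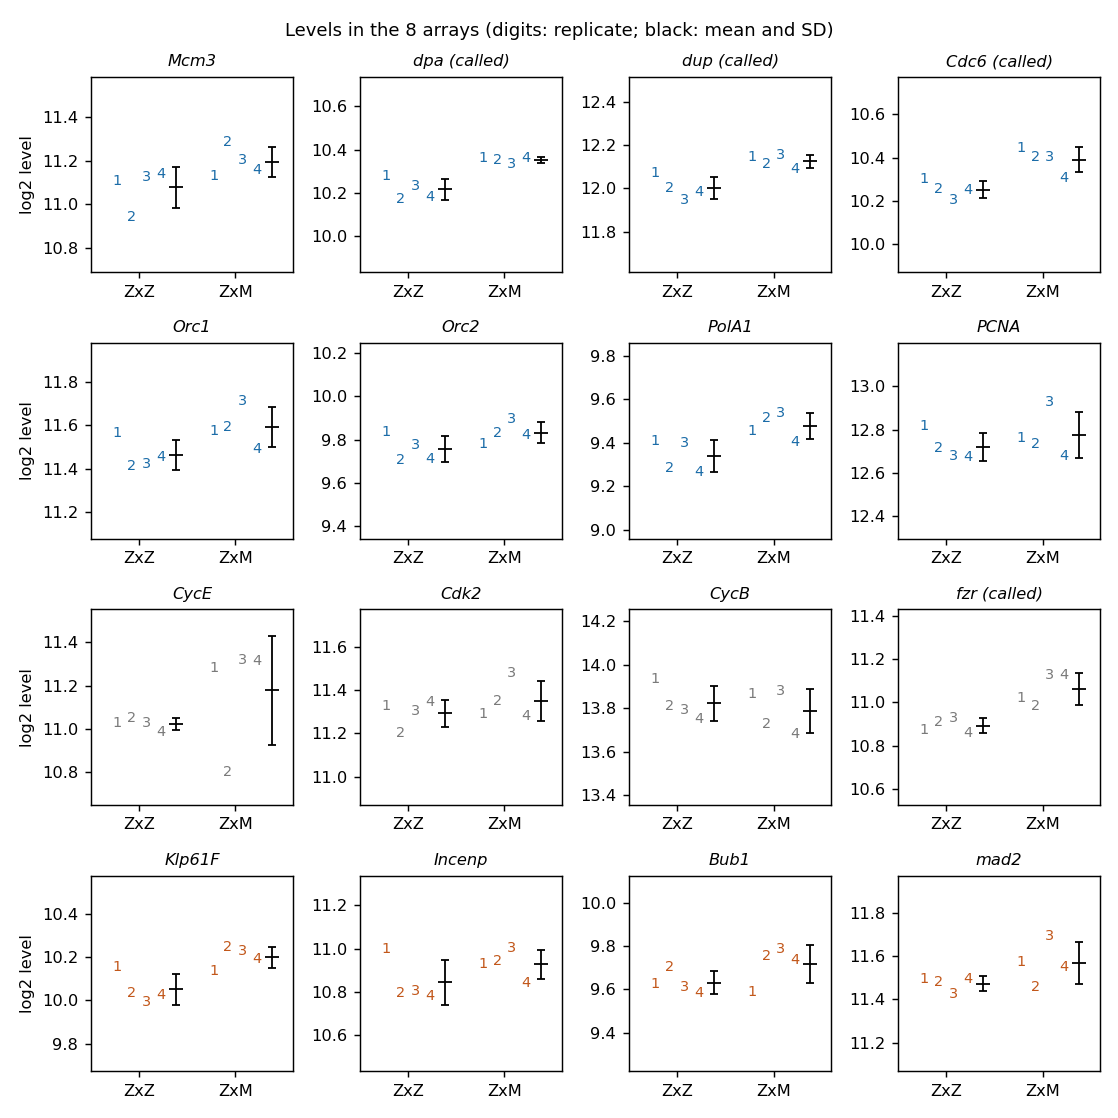
Log2 level in each array of 16 members, those called and the 2 ends of each role, for ZxZ (left) and ZxM (right) in each panel. Digits give the replicate, black marks the mean and SD of 4 arrays, and colours the replication arm (blue), cyclins and kinases (grey) and mitosis (orange). The groups are apart in Cdc6, dpa, dup and fzr, while in CycE 1 ZxM array at 10.80 lies under all the others.

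Among the genes that control entry into S phase, CycE had the most negative weighted difference of the 28 members but did not pass. Cyclin E, which it encodes, activates Cdk2. CycE was at 11.03, 11.05, 11.03 and 10.99 in ZxZ and at 11.28, 10.80, 11.32 and 11.31 in ZxM (difference -0.22, SE 0.0807, adjusted p = 0.103 from limma). The ZxZ arrays agreed closely, and 3 ZxM arrays lay above all of them, while ZxM replicate 2 lay below all of them. Without that array the ZxM mean was 11.30, and the difference of unweighted means was -0.28. With all arrays weighted equally it was -0.16, less negative than that of fzr (-0.17).
CycD, the cyclin partner of Cdk4 in growth, was at 10.59 ± 0.0271 in ZxZ and 10.72 ± 0.0543 in ZxM (SD, n = 4 each), without overlap (difference -0.12, adjusted p = 0.103 from limma). Cdk4 was at 9.90 ± 0.0150 in ZxZ and 10.06 ± 0.158 in ZxM (SD, n = 4 each), with a difference of -0.14 and an adjusted p of 0.187 from limma. The spread in ZxM came with replicate 3 at 10.28, against 9.92 to 10.06 in the other arrays of the group.
Cdk2, E2f2 and Dp varied too little to be tested. Cdk2 was at 11.33, 11.20, 11.30 and 11.34 in ZxZ and at 11.29, 11.35, 11.48 and 11.28 in ZxM, a difference of -0.03. E2f2, a repressor of the E2F family in Drosophila, differed by -0.08. Dp, the partner of E2F proteins in binding DNA, was at 11.27 ± 0.0362 in ZxZ and 11.38 ± 0.0485 in ZxM (SD, n = 4 each), and its groups did not overlap (difference -0.11).

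Of the 3 measured genes of mitotic entry and exit, fzr was lower in ZxZ and CycB3 and CycB did not pass. fzr (also fizzy-related, the Cdh1 of Drosophila) activates the anaphase-promoting complex, and with it ends mitotic cycles in favour of endocycles in follicle cells. It was at 10.87, 10.91, 10.93 and 10.86 in ZxZ and at 11.02, 10.98, 11.13 and 11.12 in ZxM (difference -0.16, SE 0.0494, adjusted p = 0.0888 from limma). All ZxZ arrays lay below all ZxM arrays, and this was the smallest adjusted p among the members.
CycB3 was at 12.27 ± 0.0351 in ZxZ and 12.38 ± 0.0658 in ZxM (SD, n = 4 each), without overlap (difference -0.11, adjusted p = 0.140 from limma). CycB, the cyclin B gene, was at 13.93, 13.81, 13.79 and 13.75 in ZxZ and at 13.87, 13.73, 13.88 and 13.68 in ZxM (difference 0.0090, SE 0.0612, adjusted p = 0.924 from limma). It is the 1 member with a positive difference, and its groups overlapped throughout. The interval of 1 SE around it holds both signs, and it turned negative after quantile normalization (-0.0031) and with arrays centred on their median (-0.037).

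None of the 5 tested genes of the mitosis arm passed with limma, and 2 of them, Klp61F and ncd, had an unadjusted p under 0.05. Klp61F, the kinesin-5 motor that pushes spindle poles apart, was at 10.15, 10.03, 9.99 and 10.02 in ZxZ and at 10.13, 10.24, 10.23 and 10.19 in ZxM (difference -0.14, SE 0.0513, adjusted p = 0.101 from limma). ZxZ replicate 1 was higher than ZxM replicate 1, and the groups were otherwise apart. ncd, a minus-end motor of the female meiotic spindle, was at 10.18 ± 0.0180 in ZxZ and 10.31 ± 0.0567 in ZxM (SD, n = 4 each), with a difference of -0.12 and an adjusted p of 0.101 from limma. It is the 1 gene of the 6 whose groups did not overlap.
aurB and Incenp encode the kinase and the scaffold of the chromosomal passenger complex. aurB was at 10.32 ± 0.0417 in ZxZ and 10.43 ± 0.0391 in ZxM (SD, n = 4 each), a difference of -0.10 with an adjusted p of 0.161 from limma. Incenp was at 11.00, 10.79, 10.80 and 10.78 in ZxZ and at 10.93, 10.94, 11.00 and 10.84 in ZxM (difference -0.09, SE 0.0590, adjusted p = 0.282 from limma), and its ZxZ replicate 1 lay close to the highest ZxM array.
Of the spindle checkpoint, Bub1 was at 9.63, 9.70, 9.61 and 9.59 in ZxZ and at 9.59, 9.75, 9.79 and 9.74 in ZxM (difference -0.06, SE 0.0570, adjusted p = 0.439 from limma). The checkpoint gene mad2, which was not tested, was at 11.49, 11.48, 11.42 and 11.50 in ZxZ and at 11.57, 11.46, 11.69 and 11.55 in ZxM, a difference of -0.11. In both genes 1 ZxM array lay inside the ZxZ range.

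Replication and mitosis genes were then set side by side. The median difference was -0.12 for the 13 replication genes, -0.11 for the 9 cyclins, kinases and regulators and -0.10 for the 6 mitosis genes, so that the replication median was lower than the mitosis median by 0.017. In each array the mean deviation of the members from their own means was taken for both arms. The replication arm minus the mitosis arm was then -0.0038 ± 0.0285 in ZxZ and 0.0038 ± 0.0090 in ZxM (SD, n = 4 each). The 4 ZxZ values ran from -0.0458 to 0.0174 and spanned the 4 ZxM values, which ran from -0.0055 to 0.0161. A contrast between the arms was thus smaller than the spread between replicates. Because the members were chosen with results known, no test was made over the arms. The calls were 3 of 11 tested genes (27.3%) in the replication arm, close to the 26.4% lower among tested genes in the members' level range. In the mitosis arm they were 0 of 5 (2 at an unadjusted p under 0.05, limma). There ncd and Klp61F, at an adjusted p of 0.101 (limma), missed the threshold by little, and whether the shares differ was not tested.

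Over the arrays the members largely moved together. ZxM replicate 3 held the highest value of 20 of the 28 members, and 26 members had their lowest value in a ZxZ array. Within ZxZ, replicate 1 was the highest array for 17 members. The mean deviation over all members was -0.0028 in ZxZ replicate 1 and -0.0677 to -0.0761 in the other 3 ZxZ arrays, against 0.124 in ZxM replicate 3 and 0.0283 to 0.0383 in the other 3 ZxM arrays. Over all measured genes it ran from -0.0403 to -0.0020 in ZxZ and from 0.0011 to 0.0449 in ZxM. There too ZxM replicate 3 was the highest array, so this movement is not particular to the members. In ZxM replicate 2 the helicase loading genes deviated by 0.0832 on average. The 6 genes of S phase entry deviated by -0.0263 there, and by 0.0282 with CycE left out. ZxM replicate 2 had the lowest array weight (0.505) and ZxM replicate 1 the highest (1.75).

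**Figure D3:**
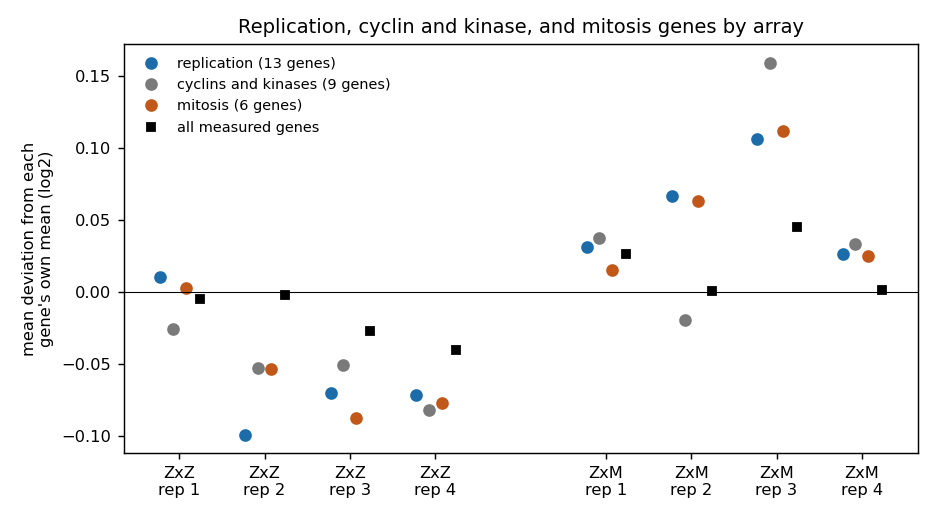
Mean deviation of each arm from its genes' own means (log2, vertical axis) in each of the 8 arrays, with all measured genes as squares. Replication and mitosis genes lie close together in every array but ZxZ replicate 2, where replication is at -0.0991 and mitosis at -0.0533, and all arms are highest in ZxM replicate 3.

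Other genes of the same pathways, which were not members, were counted in the same way. Of 26 measured genes among 31 further replication genes, 16 were tested and 7 (43.8%) were lower in ZxZ by limma at 10% FDR, 9 did not pass and none was higher (9 at an unadjusted p under 0.05, all lower). Among all tested genes 17.6% were lower, and 26.4% of those in the level range of the members (this list ran from 8.36 to 12.30). These 7 include chif, the Dbf4 subunit of the kinase that fires origins, at 9.79 ± 0.0803 in ZxZ and 10.02 ± 0.149 in ZxM (SD, n = 4 each, difference -0.28, SE 0.0669, adjusted p = 0.0866 from limma). Of the 2 probe sets of chif only the more variable was used. Mcm10 was at -0.22 (SE 0.0541), PolE1, the catalytic subunit of polymerase epsilon, at -0.17 (SE 0.0450) and mip120, of the complex that represses E2F targets, at -0.19 (SE 0.0534). The groups overlapped in chif, Mcm10 and mip120 but not in PolE1.
Of 44 measured genes among 52 further mitosis genes, 28 were tested, 7 (25.0%) were lower in ZxZ, 21 did not pass and none was called higher (18 lower and 1 higher at an unadjusted p under 0.05, limma). The 25.0% is close to the 26.4% of tested genes in the members' level range, though this list runs from 7.00 to 12.49. At mean levels of 9 to 10 and of 10 to 11, 29.3% and 32.3% of all tested genes were lower. msps, a microtubule polymerase of the spindle, was at 10.99 ± 0.0327 in ZxZ and 11.19 ± 0.0986 in ZxM (SD, n = 4 each, difference -0.23, SE 0.0515, adjusted p = 0.0866 from limma). Zwilch, of the kinetochore complex that recruits dynein, differed by -0.17 (SE 0.0452), and the kinetochore genes Spc25 and Mis12 by -0.16 each (SE 0.0498 and 0.0518). The medians of the measured genes were -0.11 for further replication genes and -0.10 for further mitosis genes, close to the -0.11 of all genes in the members' level range. All ZxZ arrays lay below all ZxM arrays in 19.2% of the further replication genes and 29.5% of the further mitosis genes. In the members' level range it was 17.1%. After quantile normalization 0 genes of either list were called by limma. Whether the lists differ was not tested.

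The upper part of the array scale moved with these differences. The 75th percentile of an array ran from 9.45 to 9.53 in ZxZ and from 9.54 to 9.63 in ZxM. The array median tended the other way, and ran from 7.27 to 7.31 in ZxZ and from 7.23 to 7.29 in ZxM, with overlap. ZxM replicate 3 had the highest 75th percentile (9.63) and the lowest median (7.23). When the arrays were given the same distribution by quantile normalization, with probe sets and tested genes held, the median difference of the members was -0.016, with 19 of 28 negative, and no member was called by limma or had an unadjusted p under 0.05. Of the 5991 tested genes none was called, and 584 had an unadjusted p under 0.05 (limma). No member kept groups without overlap, against 1.58% of all measured genes with ZxZ below and 1.84% with ZxZ above. The medians were then -0.019 for the replication arm and 0.0047 for the mitosis arm. CycE at -0.10, dup at -0.06 and fzr at -0.06 had the most negative differences, and Cdk2 the most positive, at 0.06. With arrays centred on their median, 15 of the 22 tested members were called, all lower in ZxZ, against 41.7% of all tested genes.

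**Figure D4:**
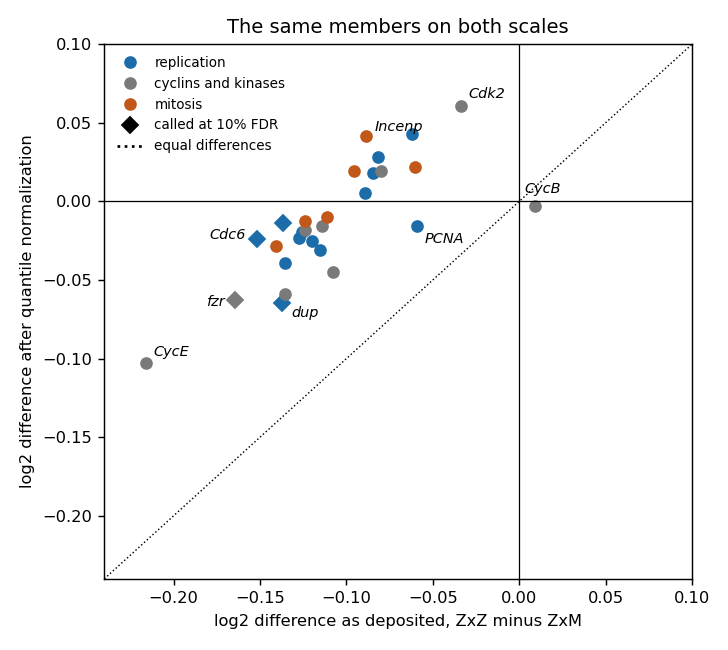
Log2 difference, ZxZ minus ZxM, of each member as deposited (horizontal axis) and after quantile normalization (vertical axis), coloured by arm, with diamonds for the 4 members called. The points lie above the dotted line of equal differences, with CycB the exception, and 9 of 28 are positive after quantile normalization.

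Markers of the tissues in a whole female gave the following values. The 16 measured of 18 germline and oocyte genes had mean levels of 10.49 to 10.58 in ZxZ arrays and 10.54 to 10.68 in ZxM arrays. Of these 14 were tested, and 4 (28.6%) were lower in ZxZ, none higher. The share lower was 17.6% of all tested genes, and 26.4% of those in the members' level range. The 13 measured of 16 eggshell genes, made by follicle cells, had mean levels of 11.96 to 12.58 in ZxZ and 12.27 to 12.91 in ZxM, and 1 of 13 (7.7%) was called lower. All 13 had negative differences, with a median of -0.25 as deposited and -0.19 after quantile normalization, where the median of the members was -0.016. Yolk protein genes Yp1, Yp2 and Yp3, expressed in fat body and follicle cells, had means of 15.08, 14.75 and 14.70 in ZxZ and 14.91, 14.61 and 14.51 in ZxM, and Yp3 was called higher in ZxZ (difference 0.17, adjusted p = 0.0963 from limma). They belong to a list of 10 genes of whole adult female tissues, of which 6 were measured and tested. Yp3 was the 1 gene called of these 6, and their differences ran from -0.07 to 0.41, with 5 positive and 1 negative. Markers of male accessory gland and testis stayed near the low end of the scale, with gene means of 6.35 to 7.75. Of these SP, the sex peptide of seminal fluid, was called higher in ZxZ (6.74 ± 0.0508 in ZxZ and 6.60 ± 0.0342 in ZxM, SD, n = 4 each, adjusted p = 0.0874 from limma), and the other 7 tested were not called. The part that ovarian content or array scale had in the differences of the members was not tested.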

How the data were processed

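Whole SZ females were measured on Affymetrix Drosophila Genome 2.0 arrays, 4 per group. The authors background-corrected, calibrated and transformed the probe values with VSN and summarised them with RMA in affy under R 2.8.1, and the deposited log2 values (6.05 to 15.15 over 18952 probe sets) were used unchanged. VSN compresses differences between low values. How far a probe set stood above background is unknown, and with 4 arrays in a group their number limits precision.

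Genes were named through the platform annotation and the gene table of assembly Release 6 plus ISO1 MT. The probe set of largest variance was kept per gene (each member had only 1), as in the study's methods. These also name an interquartile range cut of 0.5, which was read here as a quantile, so that genes above the median (0.0908) were tested. Taken literally the cut leaves 51 genes and no member. limma 3.58.1 in R 4.3.3 was run with array weights (REML), lmFit and eBayes, two-sided, with Benjamini-Hochberg adjustment over all 5991 tested genes, and genes at 10% FDR are called. Differences of untested members come from the same weights, with no p. The fit was also run on simulated data with independent noise per gene and no array differing in quality. Such data cannot show how the array weights or shifts shared by an array affect the calls.

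The members, their roles and the lists were chosen with earlier results of these data known. Values in every array are given for members called and for both ends of each role, and for each further pathway list the 4 genes of smallest p are named. In the lists, 3 names matched several genes and were not used. Of the 28 member probe sets, 5 (CycE, CycD, Cdk2, Cdk4 and fzr) end in s_at and 2 (CycB and Dp) in a_at, suffixes for probes that match more than one transcript. Array weights, the filter, the probe set choice, the normalization, the removal of dim probe sets, the prior, a plain t-test, the replicate number and each array were varied, 1 at a time. A planned search for promoter motifs was not made.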

Additional observations from a re-analysis of the deposited data

Results flagged for a closer look

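In each group of 4 arrays the gap between an extreme array and its nearest neighbour was compared with the whole range, for the 28 members and 3 array measures. Of 62 groups, 6 had a gap above Dixon's critical share for 4 values, which chance passes in about 1 of 20 groups. CycE in ZxM replicate 2 was at 10.80, against 11.28 to 11.32 in the other ZxM arrays. CycD in ZxM replicate 3 was at 10.80, against 10.69 to 10.70. Incenp in ZxZ replicate 1 was at 11.00, against 10.78 to 10.80. Mcm6 in ZxM replicate 3 was at 11.50, against 11.44 to 11.45. E2f2 in ZxZ replicate 1 was at 11.41, against 11.31 to 11.33. Mcm3 in ZxZ replicate 2 was at 10.94, against 11.11 to 11.14.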

How the results depend on the processing

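The 4 members called lower and the 1123 genes called in all were 0 and 0 by limma with equal array weights, with all genes tested, with the interquartile range cut raised to 0.5 (which left no member tested), after quantile normalization with or without new probe sets, and after cyclic loess. They were 0 and 1 with the replicate block, and 0 and 10 with the methods' t-test alone. With the probe set of highest mean, 10 of 23 tested members were called lower, against 22.6% of all tested genes called. With the lowest 25% of probe sets left out it was 9 of 18, against 29.1%. With arrays centred on their median it was 15 of 22, against 41.7% (2500 genes in all). Leaving out 1 array gave 0 to 15 members and 0 to 2968 genes, with Cdc6, dpa, dup and fzr among the calls wherever there were any. With a trend and a robust prior 6 of 22 tested members were called, without dup, against 19.3% of all tested genes. No member was called higher in any of these settings (limma, and 0 by the t-test). The replication minus mitosis difference of -0.017 was negative in every setting where it was taken, from -0.0285 to -0.0057. These settings share members and nearly all arrays, so the common sign is no separate support. The pooled SD of the contrast between arrays of a group was 0.0211. Whether the replicate numbers pair the samples is not known. Same-numbered arrays correlated at 0.146, -0.230, -0.188 and 0.160 in their deviations from the group means, and so few values cannot decide it.

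Some small differences changed sign. After quantile normalization with new probe sets, Mcm3 was at 0.012, Orc2 at 0.040, Cdk2 at 0.054, Incenp at 0.046, Bub1 at 0.015 and CycB at -0.0037. With probe sets held they were at 0.028, 0.043, 0.061, 0.041, 0.022 and -0.0031. After cyclic loess Mcm3 was at 0.018, Orc2 at 0.042, Cdk2 at 0.053, Incenp at 0.033 and Bub1 at 0.024. CycB was at -0.037 with arrays centred on their median, and at -0.046 to -0.0097 without ZxZ replicate 1, ZxZ replicate 2, ZxM replicate 2 or ZxM replicate 4 (-0.023, -0.0097, -0.023 and -0.046). Over all fits without 1 array CycB ran from -0.046 to 0.093 and Cdk2 from -0.058 to 0.0011, the last without ZxM replicate 3. The cause was not tested.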
